A study of Mus musculus with 4 samples.

Results

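The nuclear-encoded subunits of the respiratory chain and of ATP synthase were examined in iMOP cells, a mouse line made by immortalizing progenitors of the inner ear. Members were taken by gene symbol: Nduf followed by a, b, c, s or v and a digit for complex I, Sdha to Sdhd for complex II, Uqcr symbols for complex III, Cox with a digit from 4 to 8 and then a, b or c for complex IV, and Atp5 symbols for complex V. Of 103 matching genes, 15 pseudogenes were left out and 11 had under 10 counts summed over all libraries. This left 77 members, among 23768 genes with at least 1 count in any library and 49997 genes in all. They fell into 38 members of complex I, 4 of complex II, 8 of complex III, 10 of complex IV and 17 of complex V. Just inside the limit were Ndufs6b, Ndufb2 and Ndufa1 with 27, 74 and 106 summed counts, and just outside it were Ndufa4l2, Cox6c2 and Ndufa11b with 6, 4 and 3.

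The RNA-seq libraries formed 2 groups of 2, both wild-type and both from the iMOP line. Proliferating iMOPs were grown in DMEM/F12 with N21 supplement, carbenicillin and 20 ng/ml bFGF, a growth factor. iMOP-derived neurons were kept in Neurobasal medium with N21, L-glutamine and 1 µM K03861, which inhibits CDK2, a kinase that drives the cell cycle. Each group has a library numbered 1 and a library numbered 2, called here proliferating 1 and 2 and neuron 1 and 2. The labels do not say that the numbers stand for separate cultures, so p-values measure only the spread between these libraries, which may be technical. In bulk RNA, fewer cells of a type and less RNA per cell cannot be told apart.

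Complex I takes electrons from NADH, complex II takes them from succinate, and both pass them to ubiquinone. Complex III hands them on to cytochrome c, complex IV passes them to oxygen, and complex V uses the resulting proton gradient to make ATP. All but complex II also hold subunits encoded in mitochondrial DNA, so their assembly needs transcripts from 2 genomes. Neurons are known for a high demand for oxidative phosphorylation, and dividing progenitors for a larger use of glycolysis.

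Total counts ranged from 3150354 to 32913243 a library, of which 7 ribosomal RNA or rRNA-like genes took 88.2% to 98.1%. The other counts numbered 292302 in proliferating 1, 614465 in proliferating 2, 3241915 in neuron 1 and 617872 in neuron 2, and levels below are these counts scaled to the same total in each library, as counts-per-million (CPM). A count of 0 allows, at 3 counts, up to 10.3, 4.88, 0.925 and 4.86 CPM in that order. Markers went against the labels in part, the groups are named here as the labels name them, and every sign of neuron against proliferating rests on those labels. The 8 markers of dividing cells summed to 315 and 781 CPM in the proliferating libraries and to 2358 and 3565 CPM in the neuron libraries, with none at 0, and 10 neuronal markers summed to 2450 and 2308 against 1420 and 1024 CPM, with Nefl and Nefm at 0 in proliferating 1 and neuron 2. Of 11 otic progenitor markers, Pax8, Isl1 and Neurog1 had 0 counts in every library and Vim, Nes and Sox2 carried most of the sum, which was 3195 and 7447 CPM in the proliferating and 2460 and 1502 CPM in the neuron libraries. Markers of glia summed to between 256 and 790 CPM, of hair cells to between 109 and 322, of mesenchyme to between 43.9 and 109, of muscle to between 6.51 and 24.3 and of immune cells to at most 13.7. When the library number was in the edgeR model, 0.495% of all genes tested were called. That model called 4 of 8 dividing markers higher in the neuron libraries (Mki67, Top2a, Bub1 and Cenpf). Of 7 tested neuronal markers it called 1, Stmn2, lower. The same model called 1 of 4 tested glial markers higher and 2 lower. With group alone, the 7 neuronal markers had log2 fold changes, neuron over proliferating, from -3.66 to 1.92, so not all of them were lower. The part of any of these cell markers in the values of the respiratory chain was not tested.

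No member passed the test between groups. The edgeR quasi-likelihood test with group alone called 0 of the 76 members tested, against a background of 0% of 11525 genes, and 0 members had an unadjusted p under 0.05, against 1.13% of all genes. Ndufs6b, which GENCODE lists as a processed pseudogene, was the 1 member that did not pass the count filter. The median log2 fold change of the members, neuron over proliferating, was 0.05, and that of all genes tested was 0.09. The medians given below for complexes I, II, IV and V took both signs over the 16 alternative settings. An exact permutation test of 2 libraries against 2 cannot give a two-sided p below 0.333. When the model also held the library number, edgeR called 0.495% of all genes and again 0 members, and 8.04% of genes against 0 members had an unadjusted p under 0.05.

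Within the numbers, the members took opposite orders. Within each number, the difference of log2 CPM between neuron and proliferating was taken with TMM scaling and a prior count of 2 and centred on the median of all genes tested, with 1 library a group and no test. Within number 1 the members' median was 0.50, and 62 of 76 members were higher in neuron 1, against 50% of all genes. At least 2-fold higher were 13 members, 17.1% against 14.8% of genes, and 0 members were at least 2-fold lower, against 12.2%. Within number 2 the median was -0.80, and 12 members were higher in neuron 2, against 49.5% of genes. Here 32 members, or 42.1%, were at least 2-fold lower in the neuron library, against 19.8% of genes, and 1 member, Atp5d, was at least 2-fold higher, against 22.7%.

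Taken gene by gene, 51 members, or 67.1%, were higher in the neuron library of number 1 and lower in that of number 2, an order held by 22.1% of all genes. The reverse order was found in 4 members, against 22.4% of genes. Another 8 members were higher in both neuron libraries, against 27%, and 10 were lower in both, against 25.6%. The remaining 3 members, Uqcr10, Uqcr11 and Atp5g1, had 0 counts in both libraries numbered 2 and so no order there. In log2 CPM with TMM scaling the groups did not overlap for 1 member, the complex I subunit Ndufa5, which was higher in both neuron libraries, against 12.6% of genes. On that scale no member was lower in both neuron libraries than in both proliferating ones, against 6.58%. In CPM of the counts outside ribosomal RNA, Uqcrh and Ndufa6 were lower in both. Uqcrh had 106 and 105 CPM against 116 and 151 in the proliferating libraries, and Ndufa6 had 43.2 and 64.7 against 68.4 and 97.6. The share of all genes on this second scale was not taken.

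**Figure D1:**
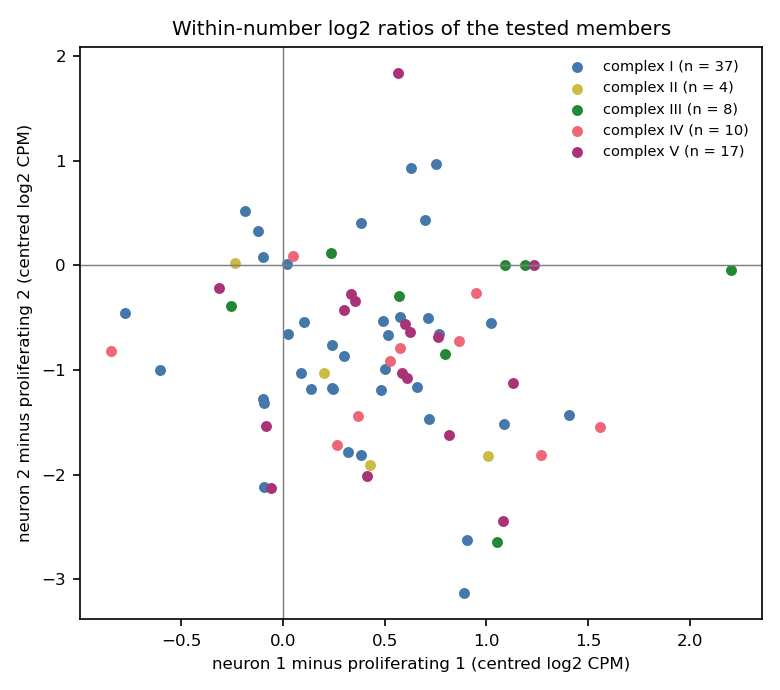
Each point is 1 of the 76 tested members, coloured by complex, with the centred difference of log2 CPM between neuron 1 and proliferating 1 on the horizontal axis and that between neuron 2 and proliferating 2 on the vertical axis. Most points (51) lie at the lower right, above 0 within number 1 and below 0 within number 2, and the 3 points at 0 on the vertical axis are members with 0 counts in both libraries numbered 2.

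Summed over all members, the respiratory chain took 0.557% of the counts outside ribosomal RNA in proliferating 1, with a 95% Wilson interval of 0.530 to 0.584, and 0.783% in proliferating 2, with one of 0.761 to 0.805. In neuron 1 the share was 0.818% (interval 0.808 to 0.828), and in neuron 2 it was 0.384% (interval 0.368 to 0.399). These intervals cover counting error only. The highest and the lowest share both came from libraries labelled neuron. Messenger RNAs encoded in mitochondrial DNA, which supply the other subunits of complexes I, III, IV and V, moved differently. They took 2.35% in proliferating 1 and 2.53% in neuron 1, but 10.6% in proliferating 2 and 14.6% in neuron 2. Their counts were uneven, and in neuron 1 COX1 had 23423 but COX2, COX3 and ATP6 had 28, 17 and 10. ND3, ND4L and ATP8 had at most 7 counts in any library, so these sums hold little of complex V. The ratio of nuclear to mitochondrial subunit counts was 0.237 in proliferating 1 and 0.324 in neuron 1, against 0.0736 in proliferating 2 and 0.0263 in neuron 2, so it separated the numbers and not the groups. Of 10 mitochondrial messenger RNAs tested, 0 passed in either direction.

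**Figure D2:**
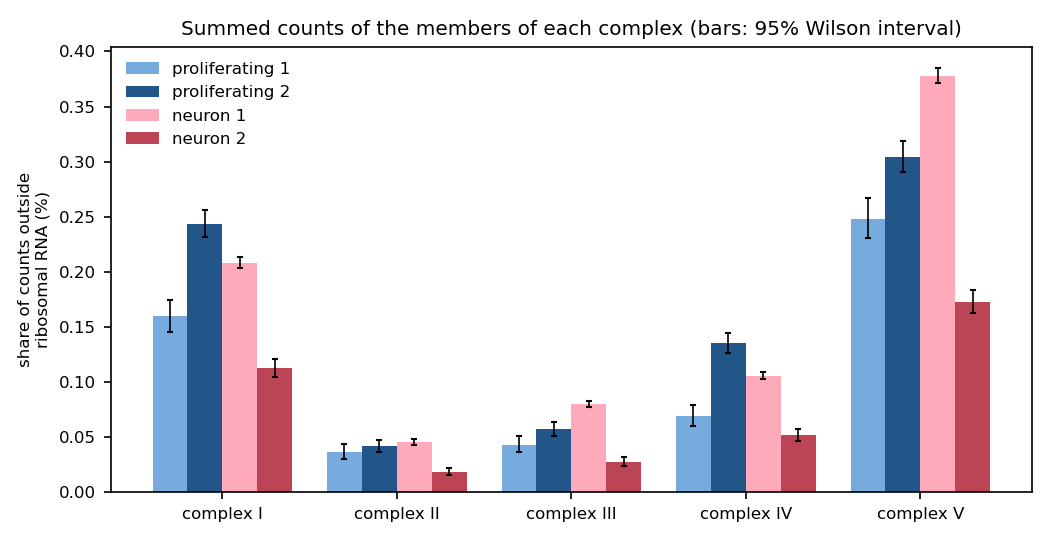
Bars give, for each complex, the summed counts of its members as a percentage of the counts outside ribosomal RNA in each of the 4 libraries, and error bars give 95% Wilson intervals. In all 5 complexes neuron 2 has the lowest bar, and neuron 1 is above proliferating 1.

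The members, like all genes tested, differed more between numbers than between groups. Across 76 members, log2 CPM of the libraries with the same number had a Pearson correlation of 0.89 (number 1) and 0.91 (number 2). Libraries of the same group reached 0.29 (proliferating) and 0.35 (neuron), and these values describe genes, which are not replicates. Over all 11525 genes tested, the correlations were 0.82 and 0.84 for the same number and 0.56 and 0.61 for the same group. Coding sequences of the lowest and highest GC content among members with at most 300 coding bases are shown for complexes III, IV and V, because the difference between numbers followed GC content. They are the principal transcripts of GENCODE M21, 5′ to 3′ on the coding strand, with every G and C in capitals.
Uqcrh: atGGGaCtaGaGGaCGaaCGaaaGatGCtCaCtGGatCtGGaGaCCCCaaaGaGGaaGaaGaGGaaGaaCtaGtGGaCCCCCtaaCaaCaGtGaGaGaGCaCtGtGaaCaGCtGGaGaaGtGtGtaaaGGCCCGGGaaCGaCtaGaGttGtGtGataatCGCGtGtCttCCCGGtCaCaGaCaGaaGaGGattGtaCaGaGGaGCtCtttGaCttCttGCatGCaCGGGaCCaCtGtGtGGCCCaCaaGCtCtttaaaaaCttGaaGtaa
Uqcr11: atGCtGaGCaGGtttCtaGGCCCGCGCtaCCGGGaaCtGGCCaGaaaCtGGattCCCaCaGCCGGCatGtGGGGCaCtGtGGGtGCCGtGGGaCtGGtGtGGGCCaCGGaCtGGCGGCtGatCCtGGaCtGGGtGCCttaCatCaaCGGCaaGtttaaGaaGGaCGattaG
Cox7b: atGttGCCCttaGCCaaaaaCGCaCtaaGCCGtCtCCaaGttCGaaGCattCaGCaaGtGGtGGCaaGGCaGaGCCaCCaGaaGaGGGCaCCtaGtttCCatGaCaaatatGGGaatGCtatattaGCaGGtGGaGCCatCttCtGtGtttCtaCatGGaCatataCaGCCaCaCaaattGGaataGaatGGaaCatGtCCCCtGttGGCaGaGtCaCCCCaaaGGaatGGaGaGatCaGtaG
Cox8a: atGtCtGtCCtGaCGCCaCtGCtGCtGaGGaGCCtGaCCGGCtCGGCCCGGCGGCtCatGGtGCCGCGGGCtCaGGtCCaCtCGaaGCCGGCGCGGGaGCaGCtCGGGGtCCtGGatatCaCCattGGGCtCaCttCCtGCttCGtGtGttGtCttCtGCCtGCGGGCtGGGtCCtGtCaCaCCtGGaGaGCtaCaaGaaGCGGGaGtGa
Atp5md: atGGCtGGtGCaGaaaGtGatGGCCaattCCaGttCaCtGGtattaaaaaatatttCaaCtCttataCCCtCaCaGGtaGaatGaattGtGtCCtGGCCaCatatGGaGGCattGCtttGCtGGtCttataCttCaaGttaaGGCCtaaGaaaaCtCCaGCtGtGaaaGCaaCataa
Atp5k: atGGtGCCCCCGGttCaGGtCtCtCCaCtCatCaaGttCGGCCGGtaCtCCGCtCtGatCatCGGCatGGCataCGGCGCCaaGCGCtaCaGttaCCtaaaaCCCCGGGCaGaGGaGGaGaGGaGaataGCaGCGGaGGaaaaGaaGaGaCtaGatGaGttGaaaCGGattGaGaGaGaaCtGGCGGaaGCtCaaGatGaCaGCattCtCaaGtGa

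Uqcrh (chr4:116066965-116075070, minus strand, RefSeq on GRCm38) encodes the hinge protein of complex III and has 49.6% GC over 270 coding bases, while Uqcr11 (chr10:80402997-80406821, minus strand), another small subunit of complex III, has 60.2% over 171. Cox7b (chrX:106015700-106022450, plus strand) and Cox8a (chr19:7215158-7217616, minus strand), both small complex IV subunits, have 47.3% over 243 bases and 64.8% over 210. Atp5md (chr19:47083471-47090647, minus strand) and Atp5k (chr5:108433246-108434399, minus strand) encode small membrane subunits of ATP synthase and have 40.7% over 177 bases and 53.7% over 216. Uqcr11 had 10 and 267 counts in proliferating 1 and neuron 1 and 0 in both libraries numbered 2, Cox8a had 49 and 616 against 3 and 3, and Atp5md had 8 and 221 against 198 and 83. In CPM, Atp5md was thus higher in both libraries numbered 2, at 322 and 134 against 27.4 and 68.2. Number 2 minus number 1, in centred log2 CPM, was 0.84 in the proliferating and 0.63 in the neuron group for Uqcrh and 2.52 and 0.85 for Cox7b. For Atp5k it was 1.20 and -1.32, so this gene was higher in number 2 in the proliferating group despite the highest GC of the pair.

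Over 74 members with a coding sequence, Spearman's rho between coding GC and the difference of number 2 minus number 1 was -0.68 in the proliferating and -0.75 in the neuron libraries. The points share their libraries, so this is a description. Over 11012 genes tested, rho with transcript GC was -0.63 and -0.82, and over the members rho with transcript GC was -0.57 and -0.63. Among the 24 members of lowest coding GC (40.7% to 50.4%) the median difference was 1.82 in the proliferating and 0.56 in the neuron libraries, and among the 26 of highest GC (54.7% to 64.8%) it was -1.75 and -2.39. The difference between neuron and proliferating within a number had rho of 0.09 with coding GC among members in number 1 and 0.19 in number 2. With transcript GC it was 0.04 and 0.08 among members, against -0.26 and -0.39 over all genes tested. With gene length it was -0.02 and 0.15 among members, against -0.09 and 0.30 over all genes tested. The median length was 967 bases for the members and 4144 for all genes tested. After a GC correction of each library the members' medians were 0.55 within number 1 and -0.61 within number 2. After a gene length correction instead they were 0.38 and -0.35.

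**Figure D3:**
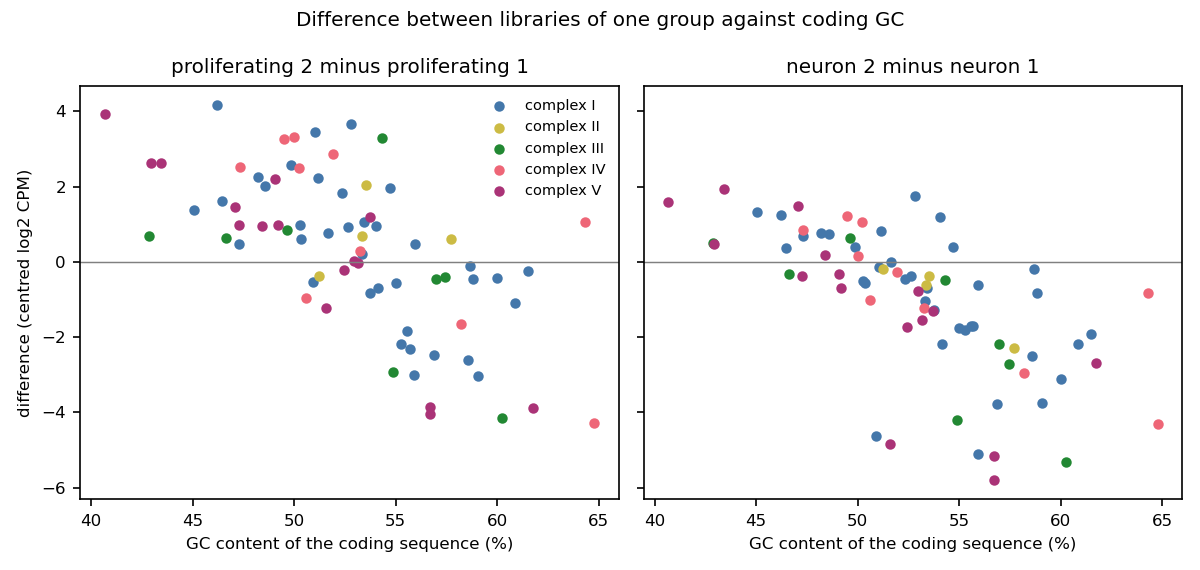
Points are 74 tested members with a coding sequence, coloured by complex, with coding GC content in percent on the horizontal axis and the centred difference of log2 CPM between the 2 libraries of a group on the vertical axis, proliferating at the left and neuron at the right. The points run from upper left to lower right in both panels.

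In both groups alike, 9 members were at least 2-fold higher in number 2, against 16.1% of all genes, and 16 were at least 2-fold lower, against 23.3%. Both libraries numbered 2 had at most 3 counts of 9 members: Ndufa11, Ndufa3, Ndufa7, Ndufv1, Uqcr10, Uqcr11, Cox8a, Atp5g1 and Atp5g2. Any of these 9 may differ between the groups within number 2 by an amount that was not detectable at this depth. The share of all genes with at most 3 counts in both libraries numbered 2 was not taken. In proliferating 2, 3 of the 77 members and 768 of 11525 genes tested had 0 counts. In neuron 2 these numbers were 7 and 772.

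**Figure D4:**
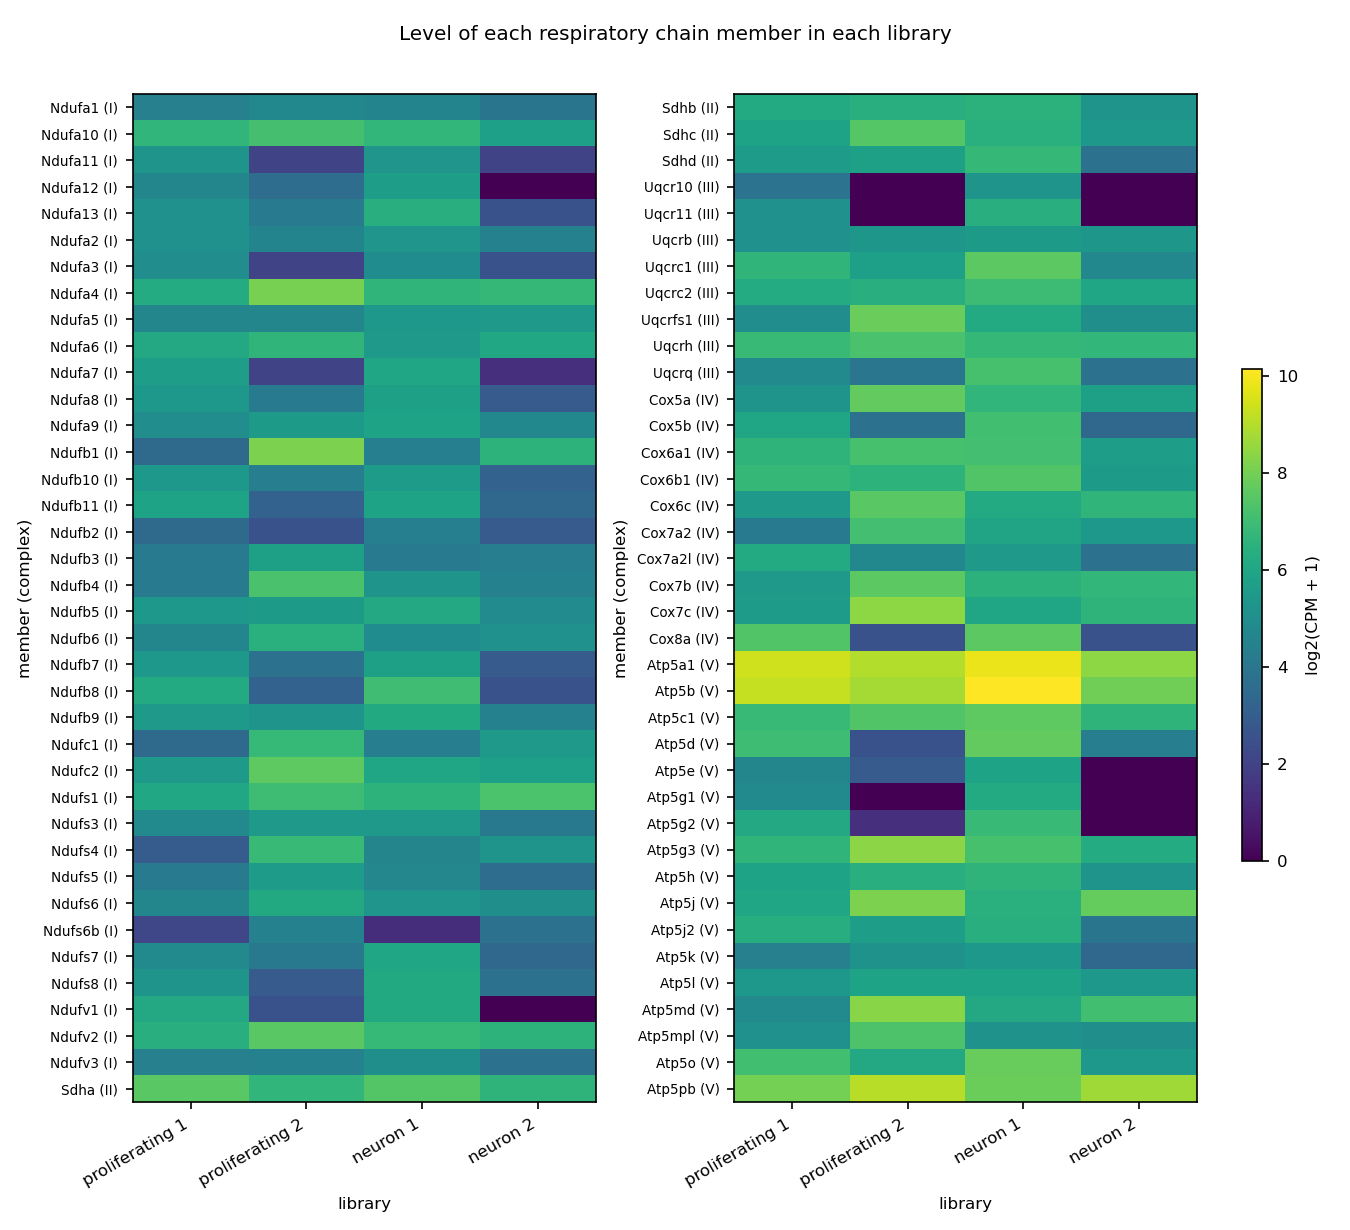
Colour gives log2(CPM + 1) of 76 of the 77 members (rows, with the complex in brackets) in each of the 4 libraries (columns). Dark cells in the columns of proliferating 2 and neuron 2 are members with few or 0 counts there, such as Uqcr10, Uqcr11 and Atp5g1.

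Complex I had 37 tested members, and its median log2 fold change between groups was 0.09. Within number 1 its median was 0.38 and 29 members were higher in the neuron library, 3 of them at least 2-fold. Within number 2 the median was -0.87, with 8 higher and 16 at least 2-fold lower. The counts of complex I summed to 0.160% of the counts outside ribosomal RNA in proliferating 1, 0.244% in proliferating 2, 0.208% in neuron 1 and 0.113% in neuron 2.

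Among the core subunits that carry the redox centres, Ndufs1, the largest iron-sulfur subunit, had 65.0 and 125 CPM in the proliferating libraries and 93.8 and 152 CPM in the neuron libraries. It was thus higher in the neuron library of each number, by 0.39 and 0.41 on the log2 scale, although the groups overlapped. Ndufv1, which binds NADH and FMN, had 68.4 and 4.88 CPM against 70.3 and 0 CPM. Its partner Ndufv2 had 82.1 and 186 CPM against 111 and 92.3 CPM, so these 2 neighbours of the NADH-oxidizing module stood apart in number 2. Ndufs8, an iron-sulfur subunit, had the highest fold change of the complex among members with at least 50 counts, with 37.6 and 6.51 CPM against 70.9 and 12.9 CPM and a log2 fold change of 1.06 (SE 1.27).

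Of the accessory subunits, Ndufa5 had 23.9 and 24.4 CPM in the proliferating libraries and 42.0 and 43.7 CPM in the neuron libraries. In TMM-scaled log2 CPM, though not in these CPM, it was the only member without overlap. Yet its log2 fold change of 0.91 (SE 1.12, 2 libraries per group) gave an adjusted p of 1.00 in edgeR, and its counts were 7, 15, 136 and 27. Ndufb4 had the lowest fold change of the complex at -1.60 (SE 1.20), with 17.1 and 150 CPM against 37.0 and 21 CPM, so that proliferating 2 alone was high. Ndufb1, next lowest at -1.33 (SE 1.36), had 10.3 and 282 CPM against 20.0 and 92.3 CPM and was high in both libraries numbered 2. Compared per length, as transcripts-per-million (TPM) of genes other than ribosomal RNA, Ndufb1, Ndufa4 and Ndufc2 had the highest mean levels of the complex, at 618, 572 and 269 TPM. Ndufb1 made up 1.88% and 2.75% of the complex's summed TPM in number 1 but 22.6% and 18% in number 2. Ndufa4, a name of the complex I series whose product is also assigned to complex IV, had 75.3 and 265 CPM against 97.8 and 107 CPM, and its hypoxia-linked relative Ndufa4l2 had 6 counts in neuron 1 and 0 elsewhere.

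Ndufa12, an accessory subunit that takes the place of the assembly factor Ndufaf2 late in assembly, had 7, 7, 164 and 0 counts in proliferating 1, proliferating 2, neuron 1 and neuron 2. Its centred difference was 0.89 within number 1 and -3.13 within number 2, the lowest of any member there. The pseudogene row Ndufa12-ps held 7, 36, 217 and 14 counts, as many as or more than the gene in each library, so reads of the pair may have been split by the counting. These genes were named after their values were seen. The acyl carrier protein Ndufab1, a subunit that the symbols did not match, had 37.6 and 89.5 CPM against 52.4 and 68.0 CPM.

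Complex II, also the succinate dehydrogenase of the tricarboxylic acid cycle, is wholly nuclear-encoded, and its 4 members had a median log2 fold change of -0.14. Sdha, the flavoprotein that oxidizes succinate, had 185 and 103 CPM in the proliferating libraries and 172 and 95.5 CPM in the neuron libraries. In each group it was higher in number 1, and its log2 fold change was -0.01 (SE 0.95). Sdhb, the iron-sulfur subunit, had 71.8 and 84.6 CPM against 91.0 and 37.2 CPM, with a log2 fold change of -0.28 (SE 1.00). The membrane anchor Sdhc had 58.2 and 177 CPM against 86.7 and 42.1 CPM and the lowest fold change of the complex, -0.92 (SE 1.04). Sdhd, the other anchor, had 47.9 and 53.7 CPM against 108 and 12.9 CPM, the highest and the lowest value both being neuron libraries. Sdhb, Sdhc and Sdhd were higher in neuron 1 than in proliferating 1 and at least 2-fold lower in neuron 2 than in proliferating 2. Within number 1 the median of the 4 was 0.32, and within number 2 it was -1.42. Their summed share was 0.0363% in proliferating 1, 0.0418% in proliferating 2, 0.0457% in neuron 1 and 0.0188% in neuron 2.

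Complex III had 8 members with a median log2 fold change of 0.39, which was negative under 1 alternative, at -0.29 without neuron 1. Its median was 0.92 within number 1 and -0.17 within number 2. Uqcr10 and Uqcr11, with 0 counts in both libraries numbered 2, enter that last median as 0. Their log2 fold changes of 1.69 and 1.43 rested on number 1 alone. Of the 8 members, 7 were higher in neuron 1, 4 of them at least 2-fold, and 1 was at least 2-fold lower in neuron 2. Uqcrq, a small subunit near cytochrome b, had 27.4 and 14.6 CPM in the proliferating libraries and 145 and 12.9 CPM in the neuron libraries. Only neuron 1 was high, and the log2 fold change of 1.91 (SE 1.24) had an unadjusted p of 0.147 and an adjusted p of 1.00 in edgeR, the lowest unadjusted p of any member. Uqcrfs1, the Rieske iron-sulfur protein, had 30.8 and 229 CPM against 72.2 and 32.4 CPM and a log2 fold change of -1.41 (SE 1.14), with proliferating 2 alone high. Its centred difference was 1.05 within number 1 and -2.65 within number 2. The core proteins Uqcrc1 and Uqcrc2 bracket the complex on the matrix side. Uqcrc1 had 99.2 and 52.1 CPM against 190 and 25.9 CPM, and Uqcrc2 had 75.3 and 84.6 CPM against 124 and 63.1 CPM.

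Uqcrh had the highest level per length of complex III, a mean of 462 TPM, with 116 and 151 CPM in the proliferating and 106 and 105 CPM in the neuron libraries. Uqcrb, which binds near the ubiquinone site, had 34.2 and 40.7 CPM against 44.7 and 40.5 CPM. Uqcr10 had 4, 0, 120 and 0 counts in proliferating 1, proliferating 2, neuron 1 and neuron 2, so its fitted fold change rested on number 1 alone. Cytochrome c1, encoded by Cyc1 and not matched by the symbols, had 71.8 and 4.88 CPM against 131 and 4.86 CPM, low in number 2 like Uqcr11. The summed share of the 8 members was 0.0431% in proliferating 1, 0.0573% in proliferating 2, 0.0802% in neuron 1 and 0.0280% in neuron 2.

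Complex IV had 10 members with a median log2 fold change of -0.41, which turned to 1.05 with library totals alone, to 0.99 and 0.78 on log2(RPKM + 0.1) and log2(RPKM + 1), and to 0.58 without proliferating 2. Within number 1, 9 of the 10 were higher in neuron 1 than in proliferating 1. The medians were 0.55 within number 1 and -0.86 within number 2, with 2 members at least 2-fold higher in the first and 4 at least 2-fold lower in the second. Cox5a and Cox5b are neighbours on the matrix side. Cox5a had 37.6 and 208 CPM in the proliferating libraries and 102 and 53.4 CPM in the neuron libraries, and a centred difference of 1.27 within number 1 and -1.81 within number 2. Cox5b had 61.6 and 13.0 CPM against 132 and 9.71 CPM and the highest fold change of the complex, 1.00 (SE 1.26). In the proliferating group Cox5a was higher and Cox5b lower in number 2, and in the neuron group both were lower in number 2. Cox7c, a small membrane subunit, had 47.9 and 347 CPM against 63.5 and 95.5 CPM and the lowest fold change, -1.31 (SE 1.13).

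Per length, Cox7c, Cox6b1 and Cox6c had the highest mean levels of the complex, at 634, 460 and 425 TPM. Cox8a made up 26.6% and 20.3% of the complex's summed TPM in number 1 and 0.428% and 1.11% in number 2, whereas Cox7c made up 9.21% and 8.24% in number 1 and 36.9% and 26.5% in number 2. Which subunit seems the most abundant therefore depended on the library number. Several complex IV subunits exist as pairs of a widely expressed form and a form of muscle, testis or other tissues. The wide forms Cox6a1, Cox6b1, Cox7a2 and Cox8a were all detected, Cox6a1 at 95.8 and 146 CPM against 136 and 48.6 CPM and Cox6b1 at 106 and 94.4 CPM against 168 and 45.3 CPM. Cox7a2 had 17.1 and 137 CPM against 59.2 and 42.1 CPM, and Cox7b had 44.5 and 190 CPM against 90.7 and 105 CPM. The muscle forms Cox7a1 and Cox8b and the testis forms Cox7b2 and Cox8c had 0 counts in all 4 libraries, Cox6a2 had 2 counts and Cox6b2 had 1.

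Cox7a2l, which helps join complexes III and IV into supercomplexes, had 71.8 and 26.0 CPM in the proliferating and 43.2 and 12.9 CPM in the neuron libraries. It was the 1 member of complex IV with centred differences below 0 in both numbers, -0.84 and -0.82, with a log2 fold change of -0.70 (SE 1.14). Cox4i1, a subunit that the symbols did not match, had 328 and 42.3 CPM against 256 and 16.2 CPM, and its lung form Cox4i2 had 1 count in neuron 1. Cytochrome c itself, from Cycs, had 6.84 and 112 CPM against 45.0 and 48.6 CPM, where 6.84 CPM stands for 2 counts. The summed share of complex IV was 0.0694% in proliferating 1, 0.135% in proliferating 2, 0.106% in neuron 1 and 0.0516% in neuron 2.

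Complex V had 17 members with a median log2 fold change of 0.04 and the largest share of counts among the complexes in each library, at 0.248% in proliferating 1, 0.304% in proliferating 2, 0.378% in neuron 1 and 0.173% in neuron 2. Its medians were 0.58 within number 1, with 14 members higher in the neuron library, and -0.68 within number 2, with 1 higher. At least 2-fold lower in neuron 2 were 8 members. Atp5b, the catalytic beta subunit, had 612 and 438 CPM in the proliferating and 1136 and 249 CPM in the neuron libraries, and Atp5a1, the alpha subunit, had 688 and 506 CPM against 926 and 345 CPM. For both, neuron 1 was the highest and neuron 2 the lowest library. With 154 or more counts in every library these were the most deeply counted members, and the log2 fold change of Atp5b was 0.40 (SE 1.05).

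In the central stalk, Atp5c1, the gamma subunit, had 116 and 166 CPM against 197 and 97.1 CPM. Atp5d, the delta subunit, had 127 and 4.88 CPM against 206 and 19.4 CPM. It was higher in the neuron library of each number, by 0.57 and 1.84, but in number 2 these were 3 and 12 counts. Atp5e, the epsilon subunit, had 7, 4, 188 and 0 counts, so neuron 1 was high, and its log2 fold change was 1.00 (SE 1.60). Of the peripheral stalk, Atp5pb had 263 and 529 CPM against 232 and 416 CPM, high in both libraries numbered 2, and Atp5o had 133 and 68.4 CPM against 223 and 42.1 CPM.

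The c ring that turns with the proton flow is built from 1 mature peptide encoded by 3 genes, Atp5g1, Atp5g2 and Atp5g3. In number 1 these had 27.4, 68.4 and 99.2 CPM in the proliferating library and 73.4, 116 and 146 CPM in the neuron library. In number 2, Atp5g1 had 0 and 0 counts and Atp5g2 had 1 and 0 counts, while Atp5g3 had 334 CPM in proliferating 2 and 74.4 CPM in neuron 2. Transcripts of the c subunit in the libraries numbered 2 thus came almost wholly from Atp5g3, whose coding GC of 49.1% is below the 56.7% of both other genes. The log2 fold change of Atp5g3 was -1.03 (SE 1.03), and that of Atp5g1, 1.60 (SE 1.84), rested on number 1.

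Per length, Atp5md, Atp5b and Atp5pb had the highest mean levels of complex V, at 800, 682 and 590 TPM. Atp5md, which helps ATP synthase form dimers, made up 4.28% and 6.79% of the complex's summed TPM in number 1 and 30.9% and 25.7% in number 2. Atp5mpl, a small proteolipid of the membrane part, had 34.2 and 159 CPM against 36.1 and 32.4 CPM and the lowest fold change of the complex, -1.53 (SE 1.12), with proliferating 2 alone high. Atp5k had 20.5 and 35.8 CPM against 41.3 and 9.71 CPM. Like most members of the complex, it was higher in neuron 1 and lower in neuron 2 than the proliferating library of the same number.

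Other genes of the pathway were described from lists, with 0 members called in either direction by edgeR with group alone in every list named here. Of 51 assembly and inhibitory factors, 42 were tested, and their medians were 0.17 within number 1 and -0.42 within number 2. The order of higher in neuron 1 and lower in neuron 2 was held by 17 of the 42, against 22.1% of all genes. Lrpprc, which stabilizes mitochondrial messenger RNAs, had 78.7 and 194 CPM in the proliferating and 176 and 278 CPM in the neuron libraries. Atpif1, the inhibitor of ATP synthase, had 133 and 155 CPM against 148 and 95.5 CPM. The 17 tested regulators of mitochondrial genes had medians of 0.41 and -0.11. Among them, Yy1 had 137 and 223 CPM against 121 and 152 CPM, and Gabpa had 71.8 and 101 CPM against 87.3 and 196 CPM. The 18 genes of the tricarboxylic acid cycle had medians of 0.47 and -0.15, and 17 tested genes of glycolysis had 0.91 and -0.12. Cytosolic ribosomal proteins, another group of short and abundant transcripts, had medians of -0.53 and -0.44. The 75 tested were thus, in the median, lower in the neuron library of both numbers. Higher in neuron 1 and lower in neuron 2 were 11 of 18 tricarboxylic acid cycle genes and 9 of 17 tested glycolysis genes. So were 6 of 17 tested regulators and 5 of 75 tested cytosolic ribosomal proteins. Whether any of these lists differs from the members was not tested.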

How the data were processed

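RNA was measured in 4 libraries, 2 per group, made from DNase-treated total RNA after ribosomal RNA depletion with a stranded kit, per the labels' protocols. The submitters' processing notes name the build mm10 and the tools HISAT2, SAMtools, featureCounts and DESeq2, while versions, annotation and strand setting are not given in the sources used here. The authors deposited raw counts per gene, the main values here, and RPKM values, which were used for an alternative fit and to derive gene lengths. For 17709 of 17709 genes those lengths matched between libraries within a relative tolerance of 0.001. Without a stated strand setting, reads of overlapping genes may be assigned to either. In GENCODE M21, where 75 members were found, 27 have an overlapping gene on the opposite strand and 35 one on either strand. Of the members named in the results, Atp5a1, Atp5d, Atp5md, Atp5pb, Cox5a, Cox6c, Ndufa11, Ndufa3, Ndufb2, Ndufs1, Ndufs6b, Ndufv2, Sdha, Uqcrb, Uqcrc2 and Uqcrh have one on the opposite strand.

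Counts were compared with edgeR 4.0.16 (quasi-likelihood, TMM, filterByExpr) in R 4.3.3, with p-values adjusted by Benjamini-Hochberg over 11525 genes at a threshold of 0.05. Alternatives used DESeq2 1.42.0, limma 3.58.1 and other settings. The fits were tested on simulated data. There the fit with group alone recovered almost none of the changed genes at any fold simulated. Its lack of calls therefore does not show a lack of differences. The fit with the library number recovered none at the smallest fold and most of them only at the largest. Its lack of called members thus does not show a lack of smaller differences. Gene positions are RefSeq's on GRCm38.p6, the assembly of mm10. Coding sequences are those of principal transcripts. Members, lists and the naming rule were chosen with earlier results of these data known. Per complex, the rule named the 3 highest levels per length, the 2 highest and 2 lowest fold changes among members with at least 50 counts, isoform sets, complex II whole and genes at the 10-count limit. Of the assembly and inhibitory factors and of the regulators, the 2 with the highest mean CPM were named. Other members were named for their role in the complex or after their values were seen. The values of 1 member of complex I are not reported here by name.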

Additional observations from a re-analysis of the deposited data

How the results depend on the processing

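The count of members called was 0 under all 16 alternatives. With the replicate block the count of members called stayed at 0, and the median of all members was -0.06. The alternatives on all 4 libraries without that block also called 0 of all genes tested. With the block, edgeR called 42 genes higher and 15 lower. With a GC correction added these were 30 and 24, and with a gene length correction 78 and 67. Labels do not say that the numbers pair libraries. Deviations from the group means correlated at 0.86 within a number across members, and at 0.69 across all genes tested. With library totals alone, the median of all genes was 0.86, and those of all members, complex III, complex IV and complex V were 0.97, 1.25, 1.05 and 1.13. Limma gave complex IV 0.99 on log2(RPKM + 0.1), and 0.78 on log2(RPKM + 1), with medians of 0.74 and 0.26 over all genes. Leaving out 1 library moved complex IV between -0.99 (without neuron 1) and 0.58 (without proliferating 2), complex V between -0.85 and 0.27 and all members between -0.87 and 0.26 (the same libraries). The medians of complexes I, II, IV and V and of all members took both signs over the 16 alternatives, and that of complex III was negative only when neuron 1 was left out, at -0.29. Within numbers, over 8 alternatives, the median stayed positive for number 1 (0.34 to 0.55) and negative for number 2 (-0.91 to -0.35). The last value came with a gene length correction, and its cause was not tested. With 292302 counts outside ribosomal RNA, proliferating 1 limits what number 1 can show of members with few counts.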

Other observations

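Windows of 300 bases around RefSeq transcription starts (250 before, 50 after, GRCm38.p6) were searched on both strands for core motifs of factors known to act on respiratory genes, and a match is no evidence of binding. A window was at hand for 65 members. The NRF1 core CGCATGCG was in 13.8% of these members, against 2.07% of all genes with a window. The GABP core CCGGAAG was in 26.2% against 9.93%, and the YY1 core AAGATGGC in 15.4% against 3.19%. All 10 members with the YY1 core belong to complexes I (7) and V (3), which hold 38 and 17 of the 77 members. TATAAA was in 9.23% against 15.7%, and the 6 members with it also belong to complexes I (4) and V (2). The members' windows had a median GC of 58.5% against 52.7% of all windows, and the part of base composition in the motif shares was not tested.

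Of the 15 pseudogenes left out, Atp5l2-ps, chosen after its values were seen, had 0 and 55 counts in the proliferating and 2 and 9 in the neuron libraries.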
